A study of Gallus gallus with 9 samples.

Results

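Cultured chicken primordial germ cells (PGCs) that had gone 24 h without basic fibroblast growth factor (bFGF) and 24 h with it again were set against cultured PGCs before withdrawal. The 3 +bFGF arrays (48 h) and the 3 RAW arrays (0 h) were chosen by their labels, 6 of the 9 Affymetrix Chicken Genome arrays of the series. The other 3, labelled -bFGF, held cells after 24 h without the factor and show where each gene stood in between. The question was which transcripts had not returned to the level at the start, and which had gone beyond it.

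The PGCs were cultured from whole blood of stage 14–15 Korean Oge chicken embryos, and the labels name no transgene or deletion in any group. RAW cells grew in medium with 10 ng/ml human bFGF and were collected at 0 h. +bFGF cells came from that medium, spent 24 h without bFGF and then 24 h with it again. The culture medium also held fetal bovine and chicken serum, and no serum-free step is described for the withdrawal. +bFGF cells were also 48 h later in culture, so replacement and time in culture cannot be told apart. The methods state that experiments were repeated, but neither they nor the labels say whether the 3 arrays of a group came from separate cultures, so p-values measure the spread between arrays, which may be technical.

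bFGF binds FGF receptors at the cell surface and activates, among other pathways, the RAS-RAF-MEK-ERK kinase cascade, which drives proliferation and survival. ERK activity switches on its own inhibitors, the Sprouty proteins, SEF (the product of IL17RD) and dual-specificity phosphatases, and ETS transcription factors such as ETV4 and ETV5. PGCs are the embryonic precursors of eggs and sperm. In birds they travel in the blood before they settle in the gonads, and in culture they depend on FGF to divide.

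The arrays carried the markers of germ cells; values per array are linear MAS5 intensities, in the order of the replicate numbers. DAZL, an RNA-binding protein of germ cells, had 34529, 36988 and 34302 on +bFGF arrays, against 37733, 39497 and 40943 on RAW arrays. DDX4, a germ cell RNA helicase (the chicken vasa homologue), had 20234, 22509 and 20426 on +bFGF arrays, against 21592, 22339 and 22552 on RAW arrays. Both stood far above the intensity of 746 probe sets for sequences other than chicken transcripts, whose 95th percentile was 31.9 to 40.5 over the arrays. NANOG and POUV have no probe set with a single gene symbol here and were not analysed. The summed intensity of 17 germ cell markers was 117758 to 124388 on +bFGF arrays and 122728 to 130043 on RAW arrays, and the groups overlapped.

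Summed markers of 3 of 7 other cell classes were lower, and those of leukocytes, endothelium, epithelium and neurons overlapped between the groups. The sum of 22 fibroblast and mesenchyme markers was 14821 to 16033 on +bFGF arrays and 16338 to 17485 on RAW arrays, with no overlap. Of the 22, 12 averaged under 100. Within the sum, the collagen gene COL1A2 averaged 1865 on +bFGF, 2385 on RAW and 263 on -bFGF arrays. Fibronectin (FN1) averaged 586 on +bFGF arrays and 956 on RAW arrays, while the brightest member, VIM, averaged 5730 on +bFGF arrays and 5646 on RAW arrays. The sum of 14 erythroid markers was 5755 to 6021 on +bFGF arrays and 6284 to 7400 on RAW arrays, again with no overlap. However, 12 of the 14 averaged under 100 and the sum lay mostly in EPB41 and CA2. EPB41 averaged 4838 on +bFGF, 5409 on RAW and 5857 on -bFGF arrays. CA2 averaged 540 on +bFGF, 831 on RAW and 57.9 on -bFGF arrays. The globin HBA1 averaged 36.3 on +bFGF arrays and 34.2 on RAW arrays, within the background. The sum of 8 thrombocyte markers was 583 to 627 on +bFGF arrays and 664 to 692 on RAW arrays, but 6 of the 8 averaged under 100. The other members went opposite ways. TUBB1 averaged 243 on +bFGF arrays and 322 on RAW arrays, and NBEAL2 127 on +bFGF arrays and 106 on RAW arrays. Array control probes also differed: the log2 ratio of 3′ to 5′ actin probe sets was 0.33 to 0.59 on +bFGF arrays and 0.62 to 0.73 on RAW arrays, and that of GAPDH -0.16 to -0.08 on +bFGF arrays and -0.07 to -0.05 on RAW arrays. The part of these shifts in the results was not tested. In RNA from many cells, fewer cells of a type and less RNA per cell cannot be told apart.

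As whole profiles, +bFGF and RAW arrays were close. The correlation of log2 intensity over 19220 probe sets was 0.984 to 0.987 between +bFGF and RAW arrays, 0.988 to 0.990 among +bFGF arrays and 0.988 to 0.990 among RAW arrays, as a description over 9, 3 and 3 pairs that share arrays. Between -bFGF and RAW arrays it was 0.979 to 0.984. The probe sets tested were those at or above the median mean log2 intensity of all 9 arrays, which corresponds to a mean intensity of at least 72.4.

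A small part of the transcriptome differed from the start. Of 19220 probe sets, limma called 335 fallen (1.74%) and 220 risen (1.14%), 2.89% in all, in +bFGF against RAW cells at an adjusted p under 0.05. With 1 probe set per gene, 169 of 9125 genes had fallen (1.85%) and 148 had risen (1.62%), 3.47% in all. Called probe sets were brighter than most: the median intensity was 868 for falls and 1521 for rises, against 466 over all tested. These shares may therefore be low as a comparison for lists of bright genes. Most shifts were modest: the median log2 change of the called probe sets was -0.45 for falls and 0.39 for rises, 16 falls and 1 rise exceeded 2-fold, and 98 falls and 32 rises exceeded 1.5-fold. The largest fall (-2.23) and the largest rise (1.04) belonged to probe sets with no gene name. The median over all tested probe sets was -0.01. No gene had probe sets called in opposite directions among the 4282 genes with more than 1. With so few probe sets called, opposite calls were unlikely, so this does not measure how well probe sets of a gene agree. Counting any probe set of a gene, 205 genes had a called fall and 169 a called rise. An unadjusted p under 0.05 in the limma fit was found for 3430 of the 19220 probe sets, both directions together. The study's criteria, described further below, called 299 fallen and 161 risen among the 19220. The unadjusted and criteria counts of the gene lists can only roughly be read beside these, because the lists count 1 probe set per gene. The matching counts over all genes, and the unadjusted count by direction, are not given here.

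The limma counts depended on single arrays. Falls and rises numbered 116 and 92 without RAW replicate 1, 112 and 88 without RAW replicate 2, 221 and 152 without RAW replicate 3, 132 and 96 without +bFGF replicate 2, and 142 and 92 without +bFGF replicate 3. Against a null of a 1.2-fold change, 11 falls and 7 rises were called. Of the 94 called genes named here, 42 kept the call without each of the 9 arrays, 45 without the intensity trend of the fit and 8 against the 1.2-fold null. The groups did not overlap at 22.1% of the probe sets. Of the 169 genes that had fallen, 5 (SST1, HES5, LUZP2, SOX9 and ABCA1) had a +bFGF mean under the intensity limit of the tested range, so that they were tested because of their level in other groups, and no gene that had risen had a RAW mean under it.

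**Figure D1:**
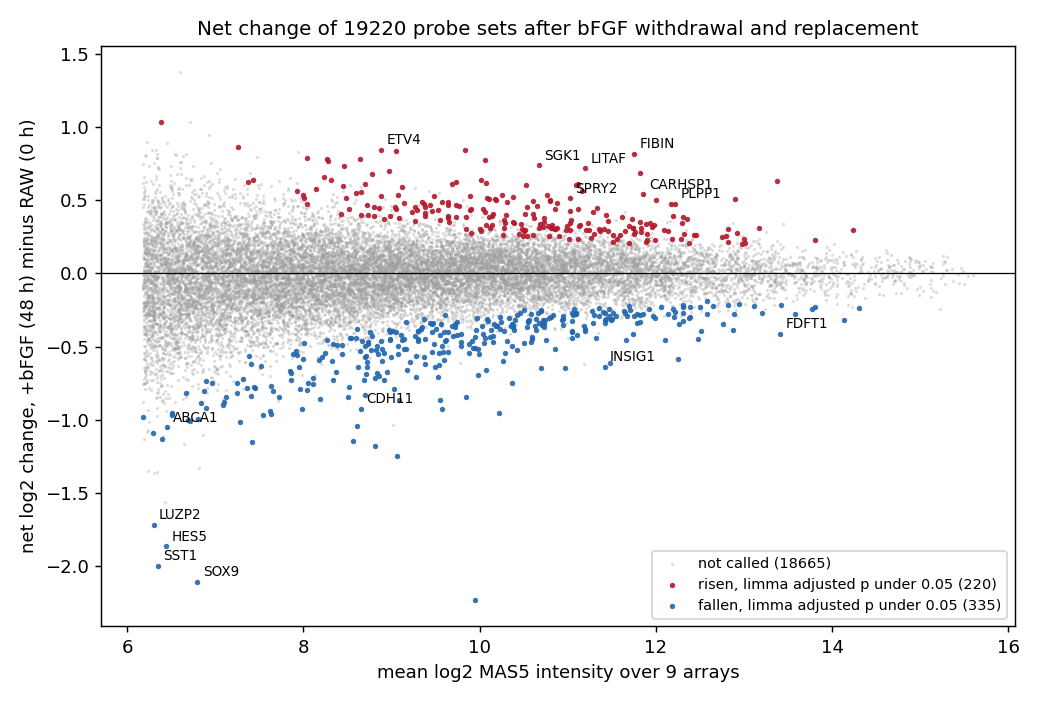
Net log2 change (+bFGF at 48 h minus RAW at 0 h, vertical axis) against mean log2 MAS5 intensity over 9 arrays (horizontal axis) for each of 19220 probe sets. Red points are the 220 risen and blue points the 335 fallen at an adjusted p under 0.05; SST1, HES5, LUZP2 and SOX9 lie lowest among the named genes, at intensities close to the lower limit of the tested range.

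The called genes were divided by where their mean lay on the -bFGF arrays. A gene was counted as part of the way back where the -bFGF mean lay beyond the +bFGF mean, as moved on where it lay between the +bFGF and RAW means, and as past the start where it lay on the other side of the RAW mean. Of the 169 genes that had fallen, 56 were part of the way back, 86 had moved on and 27 were past the start. Of the 148 that had risen, 32 were part of the way back, 83 had moved on and 33 were past the start. This is a description with no test, because the comparisons share arrays. The order of the means alone set the class, with no margin for the spread between arrays. ETV4 counted as past the start with a log2 change of -0.01 (SE 0.11) from RAW to -bFGF arrays. PTGR1 counted as part of the way back with -0.02 (SE 0.07) from -bFGF to +bFGF arrays.

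Part of what the 24 h arrays showed follows from how the classes were defined. Where a gene was part of the way back, its change at 24 h was at least as large as its net change. That all 56 falls and all 32 rises of this class were also called in -bFGF against RAW cells is therefore not a result. A return between 24 h and 48 h was called for 14 of the 56 falls and 9 of the 32 rises. Of the genes that moved on, 34 of 86 falls and 37 of 83 rises were already called at 24 h. A further change between 24 h and 48 h was called for only 19 of these 86 falls and 13 of these 83 rises. Of those past the start, 19 of 33 rises had been called as falls at 24 h and 7 of 27 falls as rises. Their change between 24 h and 48 h was larger than their net change by definition. The calls of all 33 and all 27 in +bFGF against -bFGF cells are therefore not a result either.

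**Figure D2:**
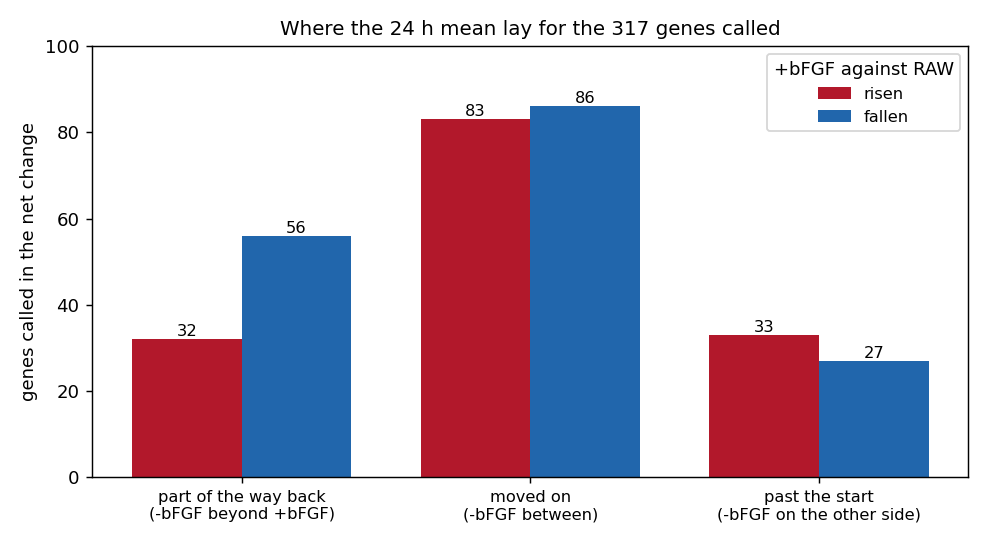
Number of genes (bar height) called risen or fallen in +bFGF against RAW cells, by where their mean on the -bFGF arrays lay. The tallest bars are the genes that moved on, 83 risen and 86 fallen.

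Some inhibitors of ERK signalling came back above their starting level. Of 12 measured members of the ERK negative feedback list, 5 had risen and none had fallen, against 1.62% of all genes risen; the median over the 12 was 0.07, beside 0.01 over all genes. At an unadjusted p under 0.05, 5 were above and 1 was below. By the study's own criteria 4 had risen and none had fallen. This list and those below were chosen with earlier results of these data known. Their shares beside all genes are therefore a description and not evidence of enrichment.

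SPRY2, a Sprouty protein that blocks signalling from receptor tyrosine kinases, had 2658, 2535 and 2733 on RAW arrays, 937, 861 and 904 on -bFGF arrays and 3998, 3658 and 3668 on +bFGF arrays. All +bFGF arrays were above all RAW arrays (net log2 change 0.51, SE 0.06, adjusted p = 0.00122). SPRY1, another Sprouty protein, had 789.6, 687 and 665 on RAW arrays, 229, 199.9 and 214 on -bFGF arrays and 1009, 1121 and 973 on +bFGF arrays. It too exceeded the start on every +bFGF array (net log2 change 0.54, SE 0.10, adjusted p = 0.0121).

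IL17RD, whose product SEF restrains FGF signalling, had 1178, 1116 and 1160.1 on RAW arrays, 237, 274 and 204 on -bFGF arrays and 1642, 1692 and 1509 on +bFGF arrays. Every +bFGF array was above every RAW array (net log2 change 0.49, SE 0.10, adjusted p = 0.0201). DUSP6, a phosphatase of ERK, had 3786, 3799 and 3796 on RAW arrays, 995, 1039 and 1002 on -bFGF arrays and 4677, 4797 and 4548 on +bFGF arrays (net log2 change 0.30, SE 0.05, adjusted p = 0.00856). DUSP4, a nuclear phosphatase of the same family, had 1868, 2114 and 2021 on RAW arrays, 1193, 1155 and 1174 on -bFGF arrays and 2539, 2376 and 2527 on +bFGF arrays (net log2 change 0.31, SE 0.06, adjusted p = 0.0192). The excess over the start was 1.23-fold for DUSP6 and 1.24-fold for DUSP4, smaller than the drop at 24 h.

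Not every inhibitor overshot. SPRED1 (-0.04), SPRED2 (-0.01), DUSP7 (0.00), DUSP10 (-0.02), DUSP16 (0.04), DUSP1 (0.10) and ERRFI1 (-0.14) were not called. The calls of SPRY2 and DUSP6 were kept without each of the 9 arrays. SPRY1 was lost without RAW replicate 2 or +bFGF replicate 2 (highest adjusted p 0.0604), IL17RD without any 1 RAW array or +bFGF replicate 2 (0.0905) and DUSP4 without RAW replicate 1 or +bFGF replicate 3 (0.0872), so that the list had 3 risen members without RAW replicate 1, RAW replicate 2 or +bFGF replicate 2. With no intensity trend in the fit it had 2, SPRY1 and SPRY2, and IL17RD, DUSP6 and DUSP4 lost the call. None of the 5 was called against a 1.2-fold null.

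ETV4, an ETS transcription factor of the PEA3 group, was the only called member of 10 measured ERK-responsive transcription factors, beside 1.62% of all genes risen, and had 413, 375 and 381 on RAW arrays, 325, 423 and 421 on -bFGF arrays and 733, 661 and 709 on +bFGF arrays. It differed from the feedback genes in that the 24 h arrays lay at the level of the start, and only the +bFGF arrays stood apart (net log2 change 0.85, SE 0.11, adjusted p = 0.00185). Its relative ETV5 was at 0.01 on the log2 scale (adjusted p = 0.971). MYC (0.15), MYCN (0.00), JUN (-0.18) and SRF (-0.03) were not called.

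**Figure D3:**
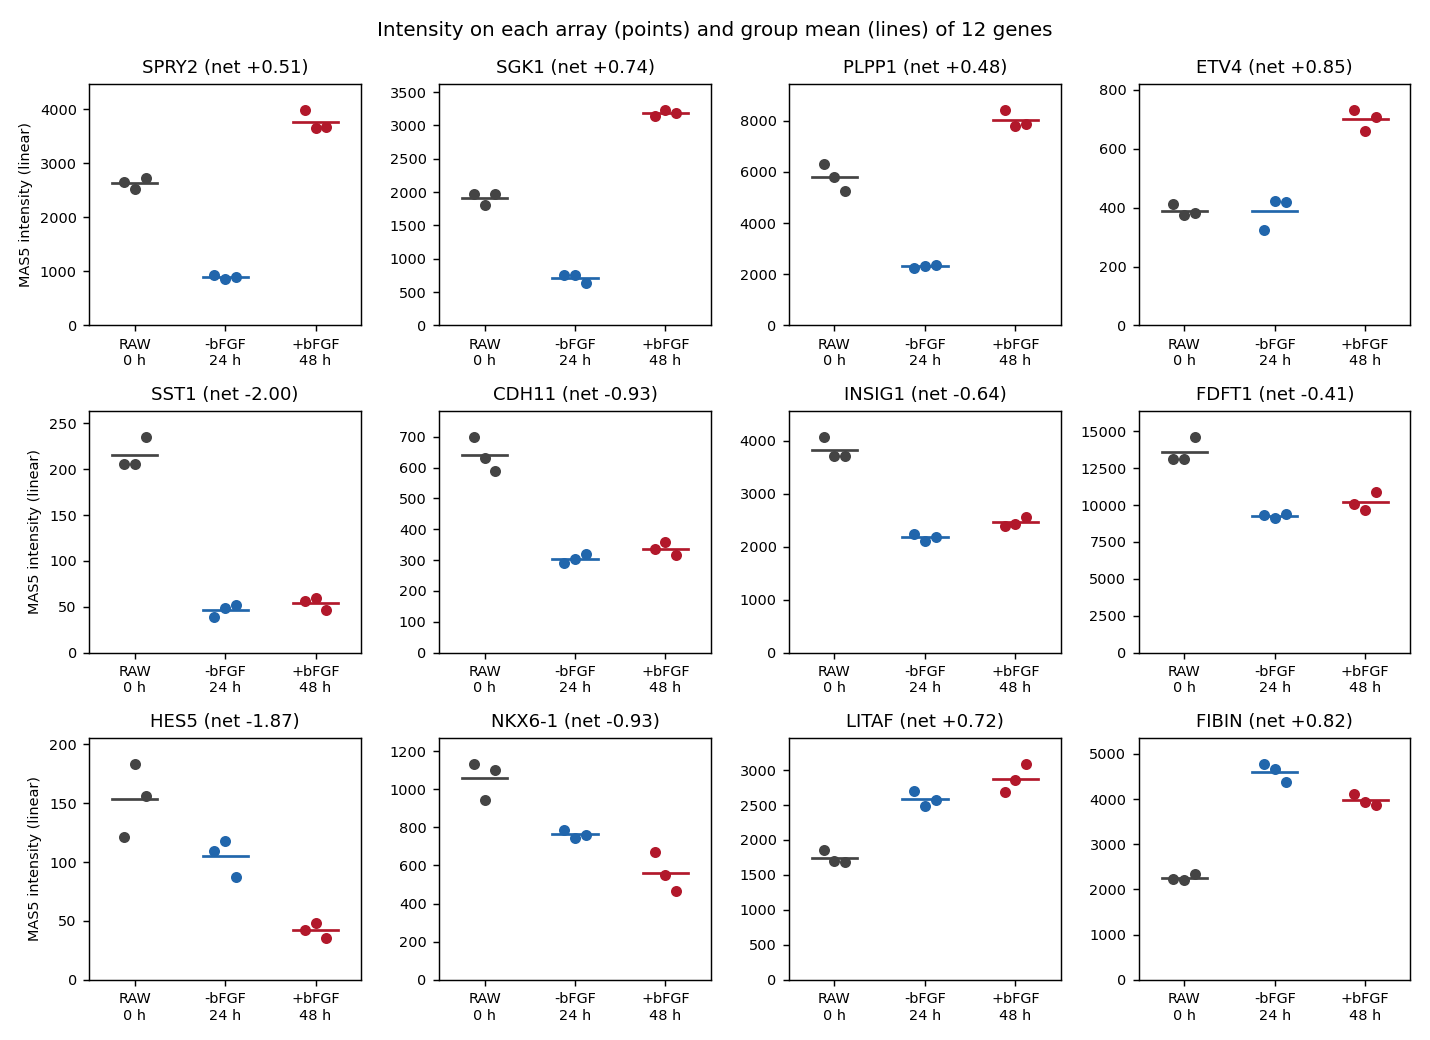
MAS5 intensity (vertical axes, linear from 0) on each array (points) and group mean (lines) at RAW (0 h), -bFGF (24 h) and +bFGF (48 h) for 12 genes, with the net log2 change in each panel title. SPRY2, SGK1, PLPP1 and ETV4 ended above the start, SST1, CDH11, INSIG1 and FDFT1 stayed near the 24 h level, HES5 and NKX6-1 were lowest at 48 h, and LITAF and FIBIN stayed up.

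Other FGF-responsive genes also passed the start. SGK1, a kinase of the AGC family that acts downstream of phosphoinositide signalling, had 1965, 1804 and 1968 on RAW arrays, 763, 749.8 and 644 on -bFGF arrays and 3143, 3238 and 3185 on +bFGF arrays. At 48 h it was 1.67-fold above the start (net log2 change 0.74, SE 0.07, adjusted p = 0.000282). PLPP1, a phosphatase of lipid phosphates, had 6304, 5814 and 5259.7 on RAW arrays, 2237, 2337 and 2382 on -bFGF arrays and 8441, 7789 and 7882 on +bFGF arrays (net log2 change 0.48, SE 0.07, adjusted p = 0.00242). CARHSP1, an RNA-binding protein with a cold shock domain, had 3935, 4183 and 4111 on RAW arrays, 2143, 2086 and 2129 on -bFGF arrays and 5652, 5924 and 6231 on +bFGF arrays (net log2 change 0.54, SE 0.05, adjusted p = 0.000282).

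CCND1, cyclin D1, which couples growth factors to entry into the cell cycle, had 3948, 4041 and 4445 on RAW arrays, 2836, 2720.5 and 2677 on -bFGF arrays and 4876, 5397 and 5490.1 on +bFGF arrays. The +bFGF arrays were above the RAW arrays with no overlap (net log2 change 0.34, SE 0.06, adjusted p = 0.0134), and the call was lost without RAW replicate 1 or 2 or +bFGF replicate 2 or 3 (highest adjusted p 0.0646). Of 40 measured G1/S genes it was the only one called as risen, and MCM2, a subunit of the replicative helicase, the only one called as fallen (net log2 change -0.27, SE 0.07, adjusted p = 0.043), 5% of the list beside 3.47% of all genes. Unadjusted, 6 were above and 4 below at a p under 0.05, and the study's criteria called none. MCM2 lost its call without any 1 RAW array, any 1 -bFGF array or +bFGF replicate 1 or 2 (highest adjusted p 0.113).

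Further genes past the start were not on the FGF or ERK lists. TBX6, a T-box factor of paraxial mesoderm, had 288, 269 and 209 on RAW arrays, 196, 168 and 135 on -bFGF arrays and 442, 409 and 466 on +bFGF arrays (net log2 change 0.79, SE 0.16, adjusted p = 0.0171). ADMP, a ligand of the BMP family, had 552, 509.7 and 344 on RAW arrays, 345, 454 and 401 on -bFGF arrays and 866, 795 and 805 on +bFGF arrays (net log2 change 0.84, SE 0.15, adjusted p = 0.012). MBP, known as myelin basic protein, had 809.9, 774 and 796 on RAW arrays, 582, 638 and 693 on -bFGF arrays and 1209.7, 1271 and 1195 on +bFGF arrays (net log2 change 0.63, SE 0.08, adjusted p = 0.00134). On every +bFGF array, all of these exceeded every RAW array, which was a condition of the rule that picked them.

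TTN, which encodes the muscle protein titin, had 330.2, 219.5 and 182 on +bFGF arrays, against 144, 138 and 109.9 on RAW arrays (net log2 change 0.86, SE 0.21, adjusted p = 0.0449). Its +bFGF arrays were spread wider than its RAW arrays, and the call was lost without any 1 RAW array, any 1 -bFGF array or +bFGF replicate 1 or 2 (highest adjusted p 0.127). TBX6 lost its call without RAW replicate 2 or 3 or +bFGF replicate 3 (highest adjusted p 0.0759). The calls of SGK1, PLPP1, CARHSP1, ADMP, MBP and ETV4 were kept without each of the 9 arrays.

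**Figure D4:**
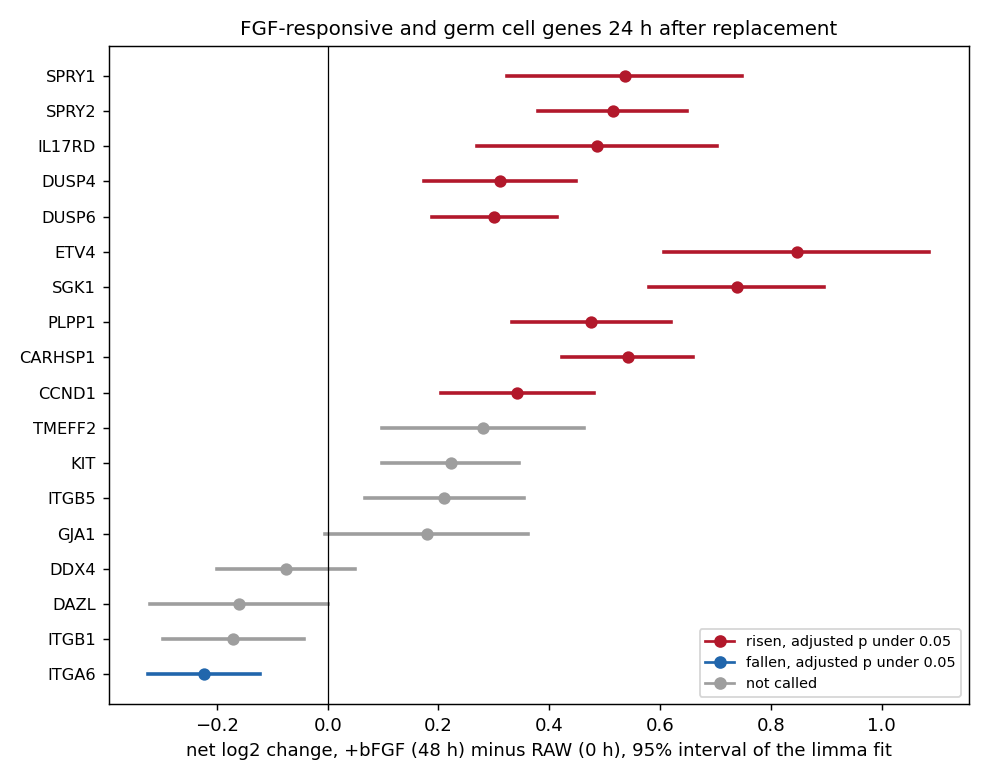
Net log2 change (+bFGF minus RAW, points) with its 95% interval from the limma fit (lines) for 18 genes; red risen, blue fallen, grey not called. The feedback genes and SGK1, PLPP1, CARHSP1 and CCND1 lie right of 0, and the intervals of GJA1, DDX4 and DAZL include it.

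Several genes that lost signal without bFGF were not called at 48 h. GJA1, the gap junction protein connexin 43, had 2798, 2605 and 2771 on RAW arrays, 1126, 1089 and 1118 on -bFGF arrays and 2718, 3003 and 3588 on +bFGF arrays. The +bFGF and RAW arrays overlapped, with a net log2 change of 0.18 (95% interval -0.0041 to 0.36). COL1A2, a chain of type I collagen, averaged 2385 on RAW arrays, 263 on -bFGF arrays and 1865 on +bFGF arrays, with a net change of -0.36 (adjusted p = 0.0637).

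TMEFF2, a transmembrane protein with follistatin-like domains, had 2731, 2760.0 and 2513 on RAW arrays, 1023, 1084 and 1008 on -bFGF arrays and 3664, 3277 and 2824 on +bFGF arrays. Its net log2 change was 0.28 (95% interval 0.10 to 0.46, adjusted p = 0.0978). ITGB5, integrin beta 5, had 2288, 2515 and 2546 on RAW arrays, 1303, 1187 and 1153 on -bFGF arrays and 2796, 2774 and 2926 on +bFGF arrays. At 0.21 (95% interval 0.07 to 0.35, adjusted p = 0.116) it also missed the threshold. SPRY2, PLPP1, GJA1, TMEFF2, IL17RD, DUSP6, SGK1 and ITGB5 were selected for their response by the study from these samples, so their direction is not independent evidence.

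A receptor of FGF had fallen. FGFR2 was the single called member of 16 measured FGF ligands, receptors and adaptors, beside 1.85% of all genes fallen, and had 2715, 2366 and 2864 on +bFGF arrays, against 3058, 3486 and 3346 on RAW arrays (net log2 change -0.32, SE 0.08, adjusted p = 0.0438). FGFR3 was at -0.35 (adjusted p = 0.055) and FGFR1 at -0.15 (adjusted p = 0.311), and neither was called. The call of FGFR2 was lost without any 1 RAW array, any 1 -bFGF array or +bFGF replicate 1 or 2 (highest adjusted p 0.169), that is, without any array except +bFGF replicate 3. The adaptors GRB2 (0.04) and PTPN11 (-0.01) were close to 0.

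Other transcripts fell on withdrawal and were still below the start at 48 h. CDH11, an adhesion protein of mesenchymal cells, had 700.5, 632 and 588 on RAW arrays, 290.0, 304 and 319 on -bFGF arrays and 335, 359.6 and 316 on +bFGF arrays (net log2 change -0.93, SE 0.10, adjusted p = 0.000577). The +bFGF arrays of CDH11 overlapped the -bFGF arrays and lay far from the RAW arrays. NPL, an enzyme of sialic acid breakdown, had 241, 226 and 213 on RAW arrays, 57.9, 51.4 and 53.4 on -bFGF arrays and 111, 113 and 116 on +bFGF arrays (net log2 change -0.99, SE 0.17, adjusted p = 0.00714), and its partial return between 24 h and 48 h was called (log2 change 1.07, adjusted p = 0.00137).

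SST1, a somatostatin gene, had 206, 205 and 236 on RAW arrays, 39.0, 49.0 and 52.3 on -bFGF arrays and 56.7, 60.0 and 46.0 on +bFGF arrays (net log2 change -2.00, SE 0.22, adjusted p = 0.000577). Its means on +bFGF and -bFGF arrays were both under the intensity limit of the tested range, and it was tested because of its RAW level. Each +bFGF array was above the background percentile of that array, and the call was kept with no filter.

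LIPG, a lipase that acts on lipoproteins, had 142, 178 and 154 on +bFGF arrays, against 300.2, 317 and 305 on RAW arrays (net log2 change -0.97, SE 0.14, adjusted p = 0.003). NKX6-2, a homeodomain factor of the neural tube, had 273, 217 and 206 on +bFGF arrays, against 418, 456 and 439 on RAW arrays (net log2 change -0.92, SE 0.15, adjusted p = 0.00659). SFRP1, a secreted antagonist of Wnt ligands, had 774, 734 and 904 on RAW arrays, 270.5, 338 and 306 on -bFGF arrays and 512, 554 and 445 on +bFGF arrays, and its partial return was called (log2 change 0.73, adjusted p = 0.00173; net log2 change -0.67, SE 0.12, adjusted p = 0.00856 from the start). For SST1, NPL, CDH11, LIPG, NKX6-2 and SFRP1 the call was kept without each of the 9 arrays.

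Some genes of sterol synthesis and its control had fallen. Of 19 measured members of the cholesterol synthesis list, 4 had fallen and none had risen, against 1.85% of all genes fallen. These were the enzymes FDFT1 and MSMO1, the regulator INSIG1 and the sterol carrier STARD4. Of the 19, 16 had a net change below 0. The list's median was -0.18, beside 0.01 over all genes. At an unadjusted p under 0.05, 10 were below and none above, and the study's criteria called 3 fallen and none risen. Leaving out single arrays gave 3 or 4 falls.

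INSIG1, which holds the sterol-regulated transcription factors of the SREBP family in the endoplasmic reticulum, had 4080.0, 3710.1 and 3721 on RAW arrays, 2237, 2105 and 2189 on -bFGF arrays and 2389, 2429.6 and 2571 on +bFGF arrays. FDFT1, squalene synthase, had 13107, 13123 and 14632 on RAW arrays, 9359, 9109 and 9392 on -bFGF arrays and 10075, 9692 and 10916 on +bFGF arrays. MSMO1, which removes methyl groups from sterol precursors, had 9778, 9660.5 and 10153 on RAW arrays, 6008, 5514 and 5646 on -bFGF arrays and 7099.5, 7836 and 7757 on +bFGF arrays. For these 3 genes all +bFGF arrays lay below all RAW arrays and above all -bFGF arrays.

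The net log2 change was -0.64 for INSIG1 (SE 0.06, adjusted p = 0.000188), -0.41 for FDFT1 (SE 0.06, adjusted p = 0.00292) and -0.38 for MSMO1 (SE 0.06, adjusted p = 0.00302), all kept without each array. STARD4, a carrier of sterols, was lower by less (net log2 change -0.30, SE 0.07, adjusted p = 0.0312) and lost its call without any 1 RAW array or any 1 +bFGF array (highest adjusted p 0.124). HMGCS1 (-0.17), SQLE (-0.18), DHCR7 (-0.20) and SREBF2 (-0.23) had values below 0 and were not called.

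Among genes of glucose uptake and lactate metabolism, SLC2A1, LDHA and SLC16A1 had fallen as well. Of 20 measured members of that list, 3 had fallen and none had risen (1.85% of all genes fallen), 17 were below 0 and the median was -0.15. By an unadjusted p under 0.05, 8 were below and none above; by the study's criteria 1 had fallen and none had risen. SLC2A1, the glucose transporter GLUT1, had 2938, 2956 and 3069.6 on RAW arrays, 1613, 1619 and 1595 on -bFGF arrays and 2332, 2197 and 2172 on +bFGF arrays. The return at 48 h left every +bFGF array below every RAW array (net log2 change -0.42, SE 0.06, adjusted p = 0.00189).

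LDHA, a subunit of lactate dehydrogenase, had 16039.6, 17678 and 17167 on +bFGF arrays, against 20996, 20023 and 22492 on RAW arrays (net log2 change -0.32, SE 0.06, adjusted p = 0.0147). SLC16A1, a transporter of lactate, had 4717, 4914 and 4750.3 on +bFGF arrays, against 5613, 5603 and 5497 on RAW arrays (net log2 change -0.22, SE 0.05, adjusted p = 0.0414). LDHA lost its call without RAW replicate 1 or 3 (highest adjusted p 0.0555) and SLC16A1 without any 1 RAW array, -bFGF replicate 2 or any 1 +bFGF array (0.135). Both lost it without the intensity trend. SLC16A1 also lost it with no filter, when centred on the 75th percentile and with only the compared groups in the fit. Without RAW replicate 1 the list had 1 fall, that of SLC2A1. ENO1 (-0.24), PGAM1 (-0.23) and TPI1 (-0.12), which encode glycolytic enzymes, were not called.

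Among 20 measured genes of the hypoxia response, 3 had fallen and none had risen (1.85% of all genes fallen), with a median of -0.09, beside 0.01 over all genes; 7 were below and 2 above at an unadjusted p under 0.05, and the study's criteria called 2 fallen and none risen. BNIP3L, a receptor for the removal of mitochondria, had 5392, 5466 and 4869 on +bFGF arrays, against 7243, 6824 and 6536 on RAW arrays (net log2 change -0.39, SE 0.06, adjusted p = 0.00643). P4HA1, the catalytic subunit of collagen prolyl hydroxylase, had 1772, 1852 and 1932 on +bFGF arrays, against 2381, 2422 and 2300.5 on RAW arrays (net log2 change -0.36, SE 0.06, adjusted p = 0.00615). MXI1, an antagonist of MYC, was the third (net log2 change -0.27, SE 0.07, adjusted p = 0.0466) and lost its call without RAW replicate 1 or 2, any 1 -bFGF array or any 1 +bFGF array (highest adjusted p 0.158). HIF1A itself was at 0.02.

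A further set of genes had a still lower mean after bFGF was back. HES5, a transcriptional repressor that responds to Notch signalling, had 122, 183 and 156 on RAW arrays, 109.7, 118 and 87.5 on -bFGF arrays and 42.2, 48.2 and 35.5 on +bFGF arrays. Its +bFGF mean was under the intensity limit of the tested range, with each array above its own background percentile (net log2 change -1.87, SE 0.23, adjusted p = 0.00134). LUZP2 had 125, 146 and 145 on RAW arrays, 102, 80.1 and 72.2 on -bFGF arrays and 49.6, 28.5 and 52.7 on +bFGF arrays (net log2 change -1.72, SE 0.27, adjusted p = 0.00444). Its +bFGF replicate 2 lay below the background percentile, and with that array raised to it the fall from RAW was 3.03-fold in place of 3.29-fold. NKX6-1, a homeodomain factor related to NKX6-2, had 1133, 941 and 1101 on RAW arrays, 785, 743 and 762 on -bFGF arrays and 668, 548 and 466 on +bFGF arrays, with a lower mean at each step (net log2 change -0.93, SE 0.12, adjusted p = 0.00134). These 3 calls were kept without each array and with no filter.

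SOX9, a transcription factor of cartilage, gonad and neural crest, had 217, 225 and 295 on RAW arrays, 87.3, 93.8 and 122 on -bFGF arrays and 82.3, 129 and 16.9 on +bFGF arrays. The +bFGF replicate 3 lay below the background percentile and the other +bFGF arrays were near the -bFGF arrays (net log2 change -2.11, SE 0.53, adjusted p = 0.0495). With that array raised to the percentile the fall was 3.40-fold in place of 4.31-fold, and the call was lost with no filter. Leaving out +bFGF replicate 3 made the fold 1.83 times smaller, and the call was lost without any 1 RAW array or any 1 -bFGF array (highest adjusted p 0.128). LGR4, a receptor for R-spondins, had 434, 221 and 200.1 on +bFGF arrays, against 606, 742 and 492 on RAW arrays (net log2 change -1.18, SE 0.25, adjusted p = 0.0213), with +bFGF replicate 1 well above the other +bFGF arrays. It lost its call without RAW replicate 1 or 2 or +bFGF replicate 2 or 3 (highest adjusted p 0.0969).

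GATA5, a factor of endoderm and heart, had 152, 101 and 155 on +bFGF arrays, against 222, 313 and 253 on RAW arrays (net log2 change -0.96, SE 0.18, adjusted p = 0.0145), and lost its call without RAW replicate 2 (adjusted p = 0.0724). Of 16 measured regulators of somatic lineages it was the only one called as fallen, and TBX6 and ZIC1 were called as risen, beside 1.85% of all genes fallen and 1.62% risen. Before adjustment, 3 were below and 3 above at a p under 0.05, and the study's criteria called 2 fallen and 1 risen. ZIC1, a zinc finger factor of the neural plate, had 10347, 10769.6 and 10297 on +bFGF arrays, against 8533, 8142 and 8638 on RAW arrays (net log2 change 0.31, SE 0.05, adjusted p = 0.0047). TBXT (0.13), EOMES (0.13), SOX17 (0.27) and OTX2 (-0.22) were not called.

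The neuronal genes DCX and MAP6 were also among those that moved on. DCX, a microtubule protein of young neurons, had 189, 119.6 and 163 on +bFGF arrays, against 262, 319 and 233 on RAW arrays (net log2 change -0.80, SE 0.20, adjusted p = 0.0449), and MAP6, which stabilises microtubules, had 295, 204 and 179 on +bFGF arrays, against 396, 419.5 and 384 on RAW arrays (net log2 change -0.86, SE 0.16, adjusted p = 0.0145). DCX was the only called gene of 8 measured neural markers, beside 1.85% of all genes fallen. Of the 8, 7 were below 0 and 1 was above. NEFM (-0.16), NEFL (-0.03) and STMN2 (-0.30) were not called. The brightest neural marker, ELAVL4, averaged 11278 on +bFGF arrays and 11750 on RAW arrays, and TUBB3 149 on +bFGF arrays and 122 on RAW arrays. DCX lost its call without any 1 RAW array, -bFGF replicate 2 or 3 or +bFGF replicate 2 or 3 (highest adjusted p 0.175) and MAP6 without RAW replicate 1 or 2 or +bFGF replicate 2 or 3 (0.0636).

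Genes of the extracellular matrix and of adhesion mostly had values below 0. Of 42 measured, 4 had fallen (CDH11, FN1, COL2A1 and ITGA6) and none had risen, against 1.85% of all genes fallen, 35 were below 0 and the median was -0.22, beside 0.01 over all genes. At an unadjusted p under 0.05, 19 were below and 1 above, and the study's criteria called 4 fallen and none risen. FN1, fibronectin, had 959, 1062 and 847 on RAW arrays, 704, 733 and 724 on -bFGF arrays and 674, 559 and 526 on +bFGF arrays, with a lower mean at each step (net log2 change -0.71, SE 0.10, adjusted p = 0.00325). It is also 1 of the fibroblast markers in the sum that was lower on +bFGF arrays, so that sum is not separate from its fall.

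COL2A1, a collagen of cartilage, had 725, 631 and 611 on +bFGF arrays, against 865, 904 and 978 on RAW arrays (net log2 change -0.48, SE 0.09, adjusted p = 0.0145). ITGA6, integrin alpha 6, a surface marker of PGCs, had 6819, 6674 and 6965 on RAW arrays, 6817, 6736 and 6556 on -bFGF arrays and 5756, 5886 and 5878 on +bFGF arrays. The -bFGF arrays were at the level of the start, and only the +bFGF arrays were lower (net log2 change -0.22, SE 0.05, adjusted p = 0.0216). COL2A1 lost its call without RAW replicate 2 or 3 or +bFGF replicate 2 or 3 (highest adjusted p 0.0623), and ITGA6 without any 1 RAW array or +bFGF replicate 2 or 3 (0.0788). The list had 2 falls without RAW replicate 2, RAW replicate 3 or +bFGF replicate 3, and 8 without +bFGF replicate 1.

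By definition, falls past the start had a -bFGF mean above the RAW mean and a +bFGF mean below it. A rise at 24 h was called for 7 of the 27. FST, follistatin, which binds and blocks activin, had 289.7, 281 and 261 on RAW arrays, 428, 379 and 439 on -bFGF arrays and 145, 154 and 182 on +bFGF arrays. The -bFGF arrays were the highest and the +bFGF arrays the lowest (net log2 change -0.80, SE 0.13, adjusted p = 0.00482). ST3GAL5, which makes the ganglioside GM3, had the same order with 2895, 3146 and 3133 on RAW arrays, 3777, 3763 and 3961 on -bFGF arrays and 1841, 1878 and 2319.7 on +bFGF arrays (net log2 change -0.61, SE 0.08, adjusted p = 0.00185).

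ALCAM, an adhesion molecule of the immunoglobulin family, had 475, 436 and 410.0 on +bFGF arrays, against 837, 750.1 and 589 on RAW arrays (net log2 change -0.71, SE 0.12, adjusted p = 0.00598). PFKFB1, which sets the level of an activator of glycolysis, had 1547, 1360.5 and 1388 on +bFGF arrays, against 2154, 2174 and 1836 on RAW arrays (net log2 change -0.52, SE 0.08, adjusted p = 0.00335). GCNT1, a glycosyltransferase of mucin-type sugar chains, had 172, 219 and 167 on +bFGF arrays, against 292, 330.3 and 310.4 on RAW arrays (net log2 change -0.75, SE 0.13, adjusted p = 0.00771). All of these, with FST and ST3GAL5, kept the call without each array. ABCA1, the exporter of cellular cholesterol, had 64.7, 49.3 and 45.2 on +bFGF arrays, against 110.3, 89.7 and 129.6 on RAW arrays (net log2 change -1.05, SE 0.24, adjusted p = 0.0335), at intensities near the lower limit of the tested range, and lost its call with no filter and without any 1 RAW array, -bFGF replicate 2 or +bFGF replicate 2 or 3 (highest adjusted p 0.114).

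FST was 1 of 3 called among 22 measured targets of BMP, activin and TGF-beta, all lower, against 1.85% of all genes fallen; the median was -0.01 (0.02 after quantile normalization and 0.01 when centred on the 75th percentile), and 4 were below and 3 above at an unadjusted p under 0.05. By the study's criteria 2 had fallen and none had risen. ID3, an inhibitor of basic helix-loop-helix factors induced by BMP, had 686, 816 and 641 on RAW arrays, 401, 434 and 528 on -bFGF arrays and 468, 469.6 and 522 on +bFGF arrays (net log2 change -0.55, SE 0.12, adjusted p = 0.0257). ID2, of the same family, had 2773, 3086 and 2917 on +bFGF arrays, against 3681, 3461 and 3577 on RAW arrays (net log2 change -0.29, SE 0.06, adjusted p = 0.019). ID1 (-0.12), SMAD7 (0.02) and BAMBI (0.18) were not called. ID3 lost its call without RAW replicate 1 or 2 or any 1 +bFGF array (highest adjusted p 0.115) and ID2 without any 1 RAW array or +bFGF replicate 3 (0.0839), and the list had 1 fall without RAW replicate 1, RAW replicate 2 or +bFGF replicate 3.

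Of 25 measured p53 targets and DNA damage genes 4 had fallen and none had risen, against 1.85% of all genes fallen, with a median of -0.03; 6 were below and 3 above at an unadjusted p under 0.05, and by the study's criteria 2 had fallen and none had risen. BTG1, an anti-proliferative protein, had 5752, 5960.1 and 5793 on +bFGF arrays, against 6892, 7050.2 and 7229 on RAW arrays (net log2 change -0.27, SE 0.05, adjusted p = 0.00777). SESN3, a sestrin that is also a FOXO target, had 301, 409 and 394 on +bFGF arrays, against 558, 535 and 566 on RAW arrays (net log2 change -0.60, SE 0.12, adjusted p = 0.0149), and the call was lost without RAW replicate 1 (adjusted p = 0.0615). BTG2, the relative of BTG1, had 285, 293 and 282 on +bFGF arrays, against 374, 374 and 423 on RAW arrays (net log2 change -0.44, SE 0.10, adjusted p = 0.0277). TP53INP1, which acts in stress-induced autophagy, was the fourth (net log2 change -0.29, SE 0.06, adjusted p = 0.0157). BTG2 lost its call without any 1 RAW array, -bFGF replicate 2 or any 1 +bFGF array (highest adjusted p 0.0893) and TP53INP1 without RAW replicate 2 or +bFGF replicate 2 or 3 (0.0761). Without RAW replicate 1, RAW replicate 2, +bFGF replicate 2 or +bFGF replicate 3, or with an average over each gene's probe sets, the list had 2 falls.

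Other genes were up at 24 h and still up at 48 h. FIBIN had 2229.6, 2199 and 2332 on RAW arrays, 4781, 4663 and 4370.3 on -bFGF arrays and 4106, 3931 and 3879.5 on +bFGF arrays. The +bFGF arrays were 1.76-fold above the start and slightly under the 24 h level (net log2 change 0.82, SE 0.06, adjusted p = 2.18e-05). LITAF, a membrane protein of endosomes, had 1859, 1693 and 1688 on RAW arrays, 2697, 2493 and 2567 on -bFGF arrays and 2692, 2857 and 3089 on +bFGF arrays and was highest at 48 h (net log2 change 0.72, SE 0.07, adjusted p = 0.000188). ACSS3, a mitochondrial short-chain acyl-CoA synthetase, had 384, 344 and 392 on RAW arrays, 595, 577 and 495 on -bFGF arrays and 625, 594 and 603 on +bFGF arrays (net log2 change 0.70, SE 0.10, adjusted p = 0.00229).

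NLGN1, a synaptic adhesion protein, had 771, 888 and 889 on RAW arrays, 2002, 2032 and 2034 on -bFGF arrays and 1208, 1195 and 1161 on +bFGF arrays and was partly reset (net log2 change 0.49, SE 0.07, adjusted p = 0.00292). PLIN2, which coats lipid droplets, had 1348, 1359 and 1306 on RAW arrays, 2304, 2201 and 2271 on -bFGF arrays and 1719, 1969.6 and 1975 on +bFGF arrays (net log2 change 0.49, SE 0.07, adjusted p = 0.00213). PTGR1, a reductase of prostaglandins and leukotrienes, had 7542, 8811 and 9359 on +bFGF arrays, against 6201, 5915 and 5874 on RAW arrays (net log2 change 0.51, SE 0.07, adjusted p = 0.00213). CTSZ, a lysosomal protease, had 1882, 1951 and 2019 on +bFGF arrays, against 1413, 1213 and 1532 on RAW arrays (net log2 change 0.50, SE 0.08, adjusted p = 0.00598). All of these 7 genes kept the call without each array.

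NR4A2, an orphan nuclear receptor of the immediate early response, had 196, 180.2 and 235 on RAW arrays, 565, 497 and 455 on -bFGF arrays and 264, 338 and 352 on +bFGF arrays (net log2 change 0.64, SE 0.14, adjusted p = 0.0299). BCL11A, a transcriptional repressor, had 1113, 1234 and 1083 on RAW arrays, 1854, 1988 and 2359.7 on -bFGF arrays and 1757, 1458 and 1625 on +bFGF arrays (net log2 change 0.49, SE 0.10, adjusted p = 0.0147). Both were part of the way back. Their calls were lost without RAW replicate 1 or 2, -bFGF replicate 2 or +bFGF replicate 2 or 3 for NR4A2 (highest adjusted p 0.121) and without RAW replicate 1 or 3 or +bFGF replicate 3 for BCL11A (0.0646).

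Some rises concern the germ line. MSH4, a protein of meiotic recombination, had 238, 221 and 209 on RAW arrays, 367, 352 and 337 on -bFGF arrays and 363, 357 and 334 on +bFGF arrays, level between 24 h and 48 h (net log2 change 0.66, SE 0.11, adjusted p = 0.00549). ASZ1, which acts in the piRNA pathway, had 1325, 1477 and 1536 on +bFGF arrays, against 1069, 1131 and 1221 on RAW arrays (net log2 change 0.34, SE 0.08, adjusted p = 0.0364). Among 24 measured germ cell markers, whose median was 0.06, ASZ1 was the only one called as risen and ITGA6 the only one called as fallen, beside 1.62% of all genes risen and 1.85% fallen. At an unadjusted p under 0.05, 5 were above and 2 below, and the study's criteria called none. The call of ASZ1 was lost without RAW replicate 1 or 2, -bFGF replicate 3 or +bFGF replicate 2 or 3 (highest adjusted p 0.139).

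The other 22 germ cell markers were not called. The net log2 change was -0.16 for DAZL (95% interval -0.32 to 0.0014) and -0.08 for DDX4 (95% interval -0.20 to 0.05). KIT, the receptor of stem cell factor, had 9252, 10005 and 9791 on +bFGF arrays, against 8395, 8092 and 8413 on RAW arrays (net log2 change 0.22, 95% interval 0.10 to 0.35, adjusted p = 0.0584), without overlap but short of the threshold. ITGB1 was at -0.17 (95% interval -0.30 to -0.04). CXCR4, the receptor that guides PGCs to the gonad, was at 0.07, PIWIL1 at -0.01, SALL4 at -0.01 and LIN28A at -0.18, none called. TFAP2C (0.55, adjusted p = 0.0628) had the highest value of the list and missed the threshold.

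Part of the amino acid response had risen. Of 19 measured members of the list governed by ATF4, 4 had risen and none had fallen, against 1.62% of all genes risen, with a median of 0.11; 8 were above and 1 below at an unadjusted p under 0.05, and the study's criteria called 2 risen and none fallen. ASNS, asparagine synthetase, had 3696, 3388 and 3693 on +bFGF arrays, against 2974, 2895 and 2938 on RAW arrays (net log2 change 0.29, SE 0.06, adjusted p = 0.0175). CHAC1, which breaks down glutathione, had 887, 909 and 846 on RAW arrays, 785, 779 and 731 on -bFGF arrays and 1103, 1130.1 and 1227 on +bFGF arrays and was past the start (net log2 change 0.39, SE 0.07, adjusted p = 0.0136). CEBPB, a transcription factor, had 868, 726 and 672 on +bFGF arrays, against 548, 527 and 565 on RAW arrays (net log2 change 0.46, SE 0.11, adjusted p = 0.0426). SLC1A4, a transporter of neutral amino acids, was the fourth (net log2 change 0.23, SE 0.06, adjusted p = 0.0412).

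ASNS lost its call without RAW replicate 1 or 2 or +bFGF replicate 3 (highest adjusted p 0.0775), CHAC1 without +bFGF replicate 3 (0.0597), CEBPB without any 1 RAW array, -bFGF replicate 2 or +bFGF replicate 1 or 2 (0.14) and SLC1A4 when any 1 of the 9 arrays was left out (0.149). The list had 1 rise without RAW replicate 1, RAW replicate 2 or +bFGF replicate 3, and 2 without RAW replicate 3 or without replicate 2 of the -bFGF or the +bFGF arrays. ATF4 was at 0.14, PSAT1 at 0.25 and MTHFD2 at 0.27.

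Values slightly above 0 were common among genes of ribosome production and of the respiratory chain, but not particular to them. Values above 0 were held by 46 of 57 cytoplasmic ribosomal proteins, 16 of 20 tRNA synthetases and 16 of 18 genes of heme synthesis and iron handling. Of 41 measured ribosome biogenesis genes 35 were above 0, with a median of 0.08 beside 0.01 over all genes, and 2 had risen, against 1.62% of all genes. At an unadjusted p under 0.05, 10 were above and 2 below, and the study's criteria called 1 risen and 1 fallen. POLR1B, a subunit of RNA polymerase I, had the lowest value of the list, -1.35 (adjusted p = 0.0685). DDX21, a nucleolar RNA helicase, had 8109.8, 8346 and 8514 on +bFGF arrays, against 6712, 6751 and 6790.2 on RAW arrays (net log2 change 0.30, SE 0.05, adjusted p = 0.00549), and NAT10, an RNA acetyltransferase of the nucleolus, had 3446, 3332 and 3229 on +bFGF arrays, against 2869, 2576 and 2891 on RAW arrays (net log2 change 0.26, SE 0.06, adjusted p = 0.0295). Of 48 measured oxidative phosphorylation genes 40 were above 0, with a median of 0.08, and 3 had risen (1.62% of all genes), the complex I subunits NDUFB3 (0.24), NDUFB9 (0.27) and NDUFB10 (0.20). NAT10 lost its call without RAW replicate 1 or 2, -bFGF replicate 2 or any 1 +bFGF array (highest adjusted p 0.131), and no oxidative phosphorylation gene was called without RAW replicate 1, RAW replicate 2, -bFGF replicate 2, -bFGF replicate 3 or +bFGF replicate 3, nor without the filter, without the intensity trend or with only the compared groups in the fit; 14 were above and 1 below at an unadjusted p under 0.05, and the study's criteria called none.

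Of 18 measured genes of heme synthesis and iron handling 2 had risen (1.62% of all genes risen), none had fallen and the median was 0.09; 7 were above and none below at an unadjusted p under 0.05, and the study's criteria called none. FECH, ferrochelatase, which puts iron into heme, had 928, 959 and 1103 on RAW arrays, 1464, 1543 and 1537 on -bFGF arrays and 1286, 1252 and 1304 on +bFGF arrays (net log2 change 0.37, SE 0.07, adjusted p = 0.0184). ABCB10, a transporter of the inner mitochondrial membrane, had 4074, 3705 and 3963 on RAW arrays, 5694, 4805 and 4883 on -bFGF arrays and 4582, 5276 and 5581 on +bFGF arrays (net log2 change 0.39, SE 0.08, adjusted p = 0.0205). Neither was called without RAW replicate 1, RAW replicate 2, +bFGF replicate 2 or +bFGF replicate 3, nor without the intensity trend. Heme synthesis is most active in red cell precursors, and a part of such cells in these rises was not tested. The erythroid marker sum lay mostly in EPB41 and CA2, so it is a weak measure of such cells.

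The remaining genes picked by the naming rule had net log2 changes between -0.92 and 0.78. Among falls, IRF4 (-0.73), a transcription factor of lymphocytes, and TCERG1L (-0.67) were part of the way back, HVCN1 (-0.88), a proton channel, SFMBT2 (-0.92), a Polycomb-related protein, and ELOVL5 (-0.23), a fatty acid elongase, had moved on, and LECT1 (-0.64), TNFRSF19 (-0.48) and the autophagy gene ATG5 (-0.29) were past the start. Among rises, CCDC173 (0.53) was part of the way back and DYNLT3 (0.78), VRTN (0.61), CABP1 (0.64), OGFOD2 (0.60), ZAR1L (0.59), ASAH1 (0.26) and SOD2 (0.25) had moved on. Of these 16 genes only VRTN and CCDC173 kept the call without each array, and the highest adjusted p of the others lay between 0.0528 (DYNLT3, without +bFGF replicate 3) and 0.166 (CABP1, when any 1 of the 9 arrays was left out).

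Other lists held no call in limma, beside 3.47% of all genes called. At that share, lists of this size would hold few calls or none, so the lack of calls is not a result. The unadjusted counts, with 1 probe set per gene, stand beside 3430 of all 19220 probe sets, both directions together. None of 33 measured G2/M genes was called (median 0.05; at an unadjusted p under 0.05, none below and 6 above), none of 22 genes of the apoptosis machinery (median -0.03; 2 below and 1 above) and none of 57 cytoplasmic ribosomal proteins (median 0.03; none below and 3 above). The same held for 33 proteasome genes (median 0.04; none below and 1 above), 25 heat shock proteins (median 0.03; 2 below and 4 above), 20 tRNA synthetases (median 0.05; none below and 4 above) and 22 genes of the unfolded protein response (median 0.06; 1 below and 3 above) and 15 interferon and innate immune genes (median 0.00; 2 below and 3 above). The study's criteria called none of these except 1 fallen gene each of the unfolded protein response and the interferon list.

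**Figure D5:**
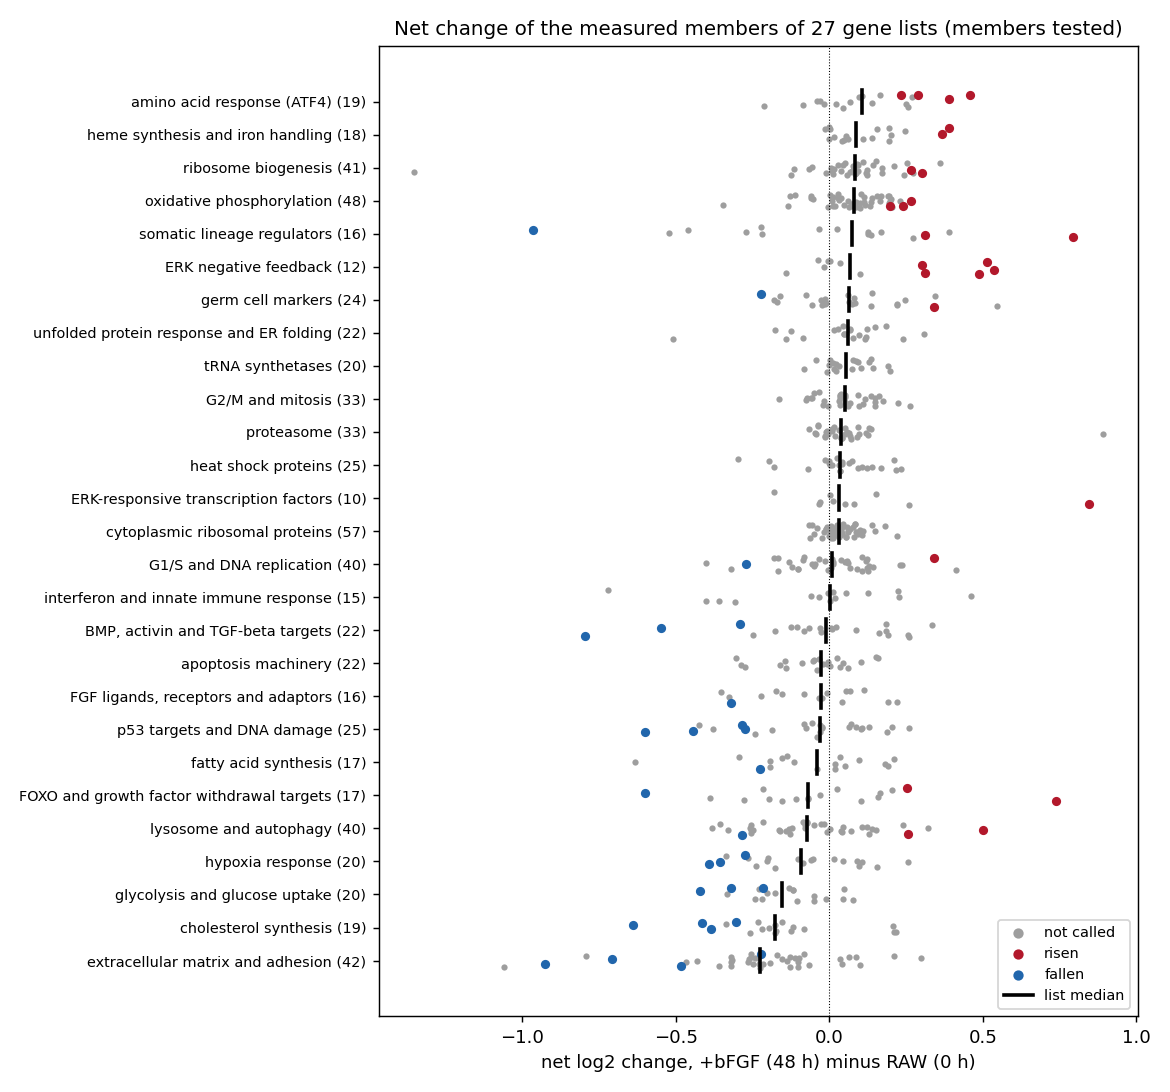
Net log2 change (horizontal axis, +bFGF minus RAW) of each measured member of 27 gene lists, 1 probe set per gene, ordered by list median (black bars). Red and blue points are called risen and fallen; extracellular matrix and adhesion, cholesterol synthesis and glycolysis have the lowest medians (-0.22, -0.18 and -0.15), and the amino acid response the highest (0.11).

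The study's criteria, which ask for a fold whose 90% interval has a lower bound over 1.2 and a difference of the group means over 50, were applied here to the linear MAS5 intensities of 38439 probe sets, with errors from the replicate arrays. The study used dChip values and errors, so these counts are not its own counts. They called 335 fallen and 166 risen, of which 299 and 161 were among the probe sets tested with limma. Both methods called 205 falls and 120 rises, and none in opposite directions. The shared falls were 61.2% of the falls called by limma and 68.6% of those called by the criteria, and the shared rises 54.5% and 74.5%. Without +bFGF replicate 1 the criteria called 560 falls. Both counts were higher with each RAW or +bFGF array left out in turn. The interval makes no allowance for the small number of arrays, so its coverage may be under 90%.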

How the data were processed

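The value table deposited by the authors holds 1 linear intensity per probe set and array, computed by the authors with MAS5 (version not given in the sources used here). Array medians lay between 71.6 and 82.6, and no further normalization was applied. Some small changes depended on this choice. Centred on the 75th percentile, FGFR2, ITGA6, SLC16A1, MCM2, MXI1, STARD4, ELOVL5 and LECT1 lost their calls. The authors' own comparisons used dChip on probe-level data, which are not used here.

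Of 38535 probe sets, 96 array controls were left out. Gene symbols came from the platform annotation: 27178 probe sets carry 1 symbol, 177 several and 11180 none, and only single-symbol probe sets were named. In the RefSeq gene table the ID of 26863 matched, with no symbol differing. Intensities were converted to log2, and the 19220 probe sets at or above the median mean log2 value were tested with limma 3.58.1 in R 4.3.3: 1 mean per group over all 9 arrays, moderated variances with an intensity trend, two-sided contrast +bFGF minus RAW, Benjamini-Hochberg adjustment over all tested probe sets. A call is an adjusted p under 0.05. The fit was tested on simulated data. The depth of an array is unknown as a count, and 3 arrays per group limit the precision.

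Genes are represented by their brightest probe set, and values of their other probe sets are not given. The naming rule takes called genes without overlap between the groups (the 15 largest falls, the 15 largest rises and the 8 largest of each class and direction), up to 4 called members of each of 35 lists, and genes the study measured by RT-PCR with KIT, ITGA6 and ITGB1. Other list members are given as values. COL1A2, HBA1, VIM, TUBB1, NBEAL2, EPB41 and CA2 were singled out after their values were seen. The members and lists were chosen with earlier results of these data known, and lists are described by counts and medians with no set test. The study's criteria were applied with errors from replicate arrays in place of those of dChip.

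Alternatives were other filters and scalings, an offset, no trend, only the compared groups, a replicate block, a 1.2-fold null, a threshold of 0.1 and each array left out.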

Additional observations from a re-analysis of the deposited data

How the results depend on the processing

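No alternative turned the direction of a named gene, but this was largely fixed in advance and is not a result. Other filters, thresholds and fits leave the log2 change itself as it is. Many named genes were also picked because their groups do not overlap, so leaving out an array cannot turn them. The 335 falls and 220 rises became 221 and 144 with no filter, 143 and 89 with no intensity trend, 217 and 148 with only the 2 groups compared in the fit, 11 and 7 against a 1.2-fold null, and 607 and 472 at an adjusted p under 0.1. With each array left out in turn they numbered 112 to 366 and 88 to 244, the lowest without RAW replicate 2 and the highest without +bFGF replicate 1. Other filters and scalings stayed within 1.5 times, but the excess of falls over rises was smaller with some of them. Falls and rises numbered 270 and 249 when centred on the 75th percentile, and 298 and 252 with the 75th percentile filter. The study's criteria (335 falls, 166 rises) gave 1474 and 827 with no minimum difference, 64 and 13 with a lower bound of 1.5, and 351 to 560 falls and 197 to 231 rises with an array left out. Without the intensity trend the called members numbered 1 for the glycolysis, hypoxia, BMP, p53 and amino acid response lists and 2 for the matrix list. The causes were not tested.

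With a replicate block the counts were 200 falls and 142 rises. Deviations of same-numbered +bFGF and RAW arrays correlated at -0.01, -0.16 and 0.06, and the labels do not say that a number marks a shared culture, so the numbers were not taken to pair the arrays. Of the 94 named genes that were called, 42 kept the call without each of the 9 arrays, 8 against a 1.2-fold null, 45 without the intensity trend, 69 with no filter, 68 with only the compared groups, 68 with the replicate block, 86 centred on the 75th percentile and 92 after quantile normalization. Groups of 3 arrays were too small to test single arrays as outliers, and genes under the intensity limit, where values near the background have no reliable order, were not tested.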
